A study of Mus musculus with 34 samples.

Results

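The 8 genes described here act in the oxidation of fatty acids and in the handling of fat inside the cell. They were taken as a named list, 8 of the 21938 protein-coding genes of GENCODE M21 on mm10. The list was chosen with earlier results of these data known. The genes are *Cpt1a*, *Acadm*, *Acadl*, *Ehhadh*, *Pdk4*, *Angptl4*, *Plin2* and *Creb3l3*. For each of them the mean H3K4me3 signal within 1000 bp of the 5′ end of the gene was read in 4 CUT&RUN libraries. CUT&RUN releases the DNA around an antibody-bound chromatin mark with a tethered nuclease, and H3K4me3, the trimethylation of lysine 4 of histone H3, lies at the promoters of genes in use. The libraries came from villus cells scraped from the normal-appearing small intestine of 2 wild-type and 2 ApcMin/+ mice, all C57BL/6J, 5 weeks old by the sample labels and 6 weeks by the methods, with free access to chow. ApcMin/+ mice carry 1 mutant allele of the tumor suppressor *Apc* in all their cells, wild-type mice carry none, and no other allele or agent separated the groups. The comparison asks whether the mark at these promoters differed between the genotypes in normal-appearing intestine. The group is known as fatty acid oxidation and ketogenesis genes, but none of the 8 encodes an enzyme that makes ketone bodies, so the enzymes of that pathway were read as a separate list.

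Fatty acids enter mitochondria bound to carnitine and are then shortened from the carboxyl end in repeated cycles of β-oxidation, while peroxisomes shorten the chains that mitochondria handle poorly. In liver, muscle and gut, fasting and fatty acids raise many genes of these pathways through the nuclear receptor PPARα. Enterocytes of the villus meet fatty acids at every meal, since they absorb dietary fat, hold part of it in lipid droplets and export the rest.

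The 4 libraries differed in more than genotype. They held 1430000 to 5470000 tags, and 9931 promoters reached a mean signal of 2 and were tested. The median of these tested promoters was 4.53 (replicate 1) and 3.06 (replicate 2) for wild type, against 13.2 and 4.18 for ApcMin/+. ApcMin/+ replicate 1 thus stood apart at most promoters, so the values of every library are given apart. It had 43.3% of its signal in enriched stretches against 11.9% to 22.6% in the other libraries. These stretches were called on the average of the 4 libraries, to which its own high promoters contributed. The 12 promoters of enterocyte markers had mean signals of 1.91 (*Sis*) to 14.2 (*Vil1*). All 7 stromal and endothelial and all 4 muscle markers, and 5 of 6 immune markers, lay below 1. Of 5 crypt markers, 2 reached the mean of 2, *Mki67* at 8.11 and *Smoc2* at 2.70. Of 14 secretory markers, 1 did, *Atoh1* at 2.21. In scraped cells, fewer cells that carry the mark and less mark per cell cannot be told apart.

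The DNA around the starts of these genes is shown for the promoters on which the results turn, namely that of *Pdk4*, the one that passed a test between genotypes, those of *Cpt1a* and *Creb3l3*, where the annotated starts matter, and that of *Plin2* for its motifs. RefSeq promoter sequences (GRCm38.p6, 250 bases before to 50 after a start) matched 7 of the 8 genes with 8 entries, since *Creb3l3* has 2 starts. *Angptl4* had no entry. Capitals mark matches, on either strand, to the GC box GGGCGG, the TATA box TATAAA, the CCAAT box, the core TGACG of the cyclic AMP response element, its full form TGACGTCA, the nuclear receptor motif AGGTCA, the HNF4 motif CAAAGTCCA, and a nuclear receptor pair made of 2 copies of AGGTCA with 1 base between them and at most 2 mismatches. The core TGACG lies within the full form, and AGGTCA can be part of the pair. The sequences read 5′ to 3′ along the gene, and that of *Cpt1a* is at the RefSeq start, 967 bp downstream of the GENCODE 5′ end.
Pdk4, chr6:5496229-5496528, minus strand: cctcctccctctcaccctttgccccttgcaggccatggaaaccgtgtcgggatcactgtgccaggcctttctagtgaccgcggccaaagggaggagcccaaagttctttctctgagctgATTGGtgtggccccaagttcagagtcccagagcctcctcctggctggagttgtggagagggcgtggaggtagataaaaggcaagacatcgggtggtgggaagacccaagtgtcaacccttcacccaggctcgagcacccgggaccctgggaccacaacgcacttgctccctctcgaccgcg
Cpt1a, chr19:3323051-3323350, plus strand: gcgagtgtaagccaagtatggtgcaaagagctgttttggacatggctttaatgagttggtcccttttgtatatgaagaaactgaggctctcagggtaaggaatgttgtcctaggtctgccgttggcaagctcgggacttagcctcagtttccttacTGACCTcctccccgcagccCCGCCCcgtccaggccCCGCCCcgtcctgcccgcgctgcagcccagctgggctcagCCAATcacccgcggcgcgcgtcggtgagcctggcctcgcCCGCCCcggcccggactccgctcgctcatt
Plin2, chr4:86670010-86670309, minus strand: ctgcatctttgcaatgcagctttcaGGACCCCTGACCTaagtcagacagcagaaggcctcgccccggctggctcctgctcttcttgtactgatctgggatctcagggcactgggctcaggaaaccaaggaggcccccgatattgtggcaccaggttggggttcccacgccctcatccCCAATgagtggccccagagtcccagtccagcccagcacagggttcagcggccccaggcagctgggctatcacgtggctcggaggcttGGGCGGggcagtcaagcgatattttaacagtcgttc
Creb3l3 at the gene 5′ end, chr10:81098823-81099122, minus strand: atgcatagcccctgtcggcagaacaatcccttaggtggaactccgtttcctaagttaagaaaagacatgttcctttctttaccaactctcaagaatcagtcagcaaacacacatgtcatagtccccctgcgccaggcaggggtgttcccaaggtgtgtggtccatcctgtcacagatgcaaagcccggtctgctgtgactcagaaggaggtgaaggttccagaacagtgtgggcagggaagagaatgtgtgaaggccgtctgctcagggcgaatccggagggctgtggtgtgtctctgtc
Creb3l3 at its internal start, chr10:81092542-81092841, minus strand: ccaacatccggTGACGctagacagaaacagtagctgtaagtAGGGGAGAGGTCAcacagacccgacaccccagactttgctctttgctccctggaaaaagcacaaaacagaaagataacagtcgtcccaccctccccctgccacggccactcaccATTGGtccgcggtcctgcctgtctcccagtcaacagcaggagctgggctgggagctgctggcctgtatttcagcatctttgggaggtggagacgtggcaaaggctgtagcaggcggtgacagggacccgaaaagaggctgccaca

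The *Pdk4* window held a single match, a CCAAT box on the reverse strand. The *Cpt1a* window held 3 copies of the GC box with a CCAAT box and an AGGTCA. The nuclear receptor pair was found at *Plin2* and at the internal start of *Creb3l3*, each with 2 mismatches, and in 3.86% of all 32851 promoters of the table. AGGTCA alone was found in 4 of the 8 entries, those of *Cpt1a*, *Acadm*, *Plin2* and the internal start of *Creb3l3*, and in 16.3% of all promoters. GGGCGG was found at *Cpt1a*, *Acadl*, *Ehhadh* and *Plin2* (35.7% of all), CCAAT in 5 entries (37.4% of all) and TGACG in 3 (20.8% of all). The TATA box, the full cyclic AMP response element and the HNF4 motif were in none of the 8 entries and in 13.6%, 1.79% and 0.475% of all promoters. The CpG count ran from 7 at the 5′ end of *Creb3l3* to 34 at *Acadl*, and the other 7 entries were above the median of 7 over all promoters. A match of this kind describes the letters and not a bound factor.

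Within 1000 bp of the 5′ end, *Acadm* carried the most H3K4me3 and *Creb3l3* the least, with means over the 4 libraries of 10.0 and 1.00. *Ehhadh* followed *Acadm* with a mean of 7.25. *Acadl*, *Plin2*, *Cpt1a* and *Pdk4* lay close together, between 4.74 and 5.63, and *Angptl4* lay lower at 2.12. *Acadm* exceeded *Ehhadh*, *Ehhadh* exceeded *Acadl*, *Pdk4* exceeded *Angptl4* and *Angptl4* exceeded *Creb3l3* in 4 of 4 libraries. The order of *Acadl* over *Plin2* and of *Plin2* over *Cpt1a* held in 3 of 4 libraries and that of *Cpt1a* over *Pdk4* in 2 of 4, so these 4 genes are not ranked. The median of the 8 genes was 3.48 and 3.18 for wild type and 10.5 and 3.39 for ApcMin/+, which was 0.767, 1.04, 0.793 and 0.813 times the median tested promoter of the same library. *Creb3l3*, with a mean under 2, was not tested, which left 7 tested genes.

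**Figure D1:**
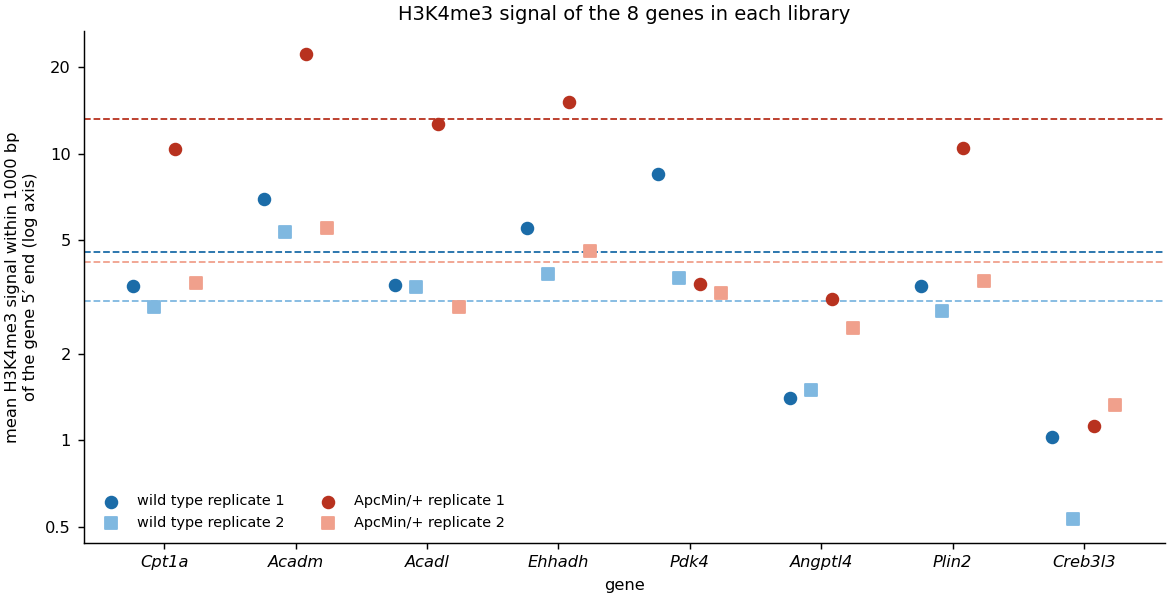
Mean H3K4me3 signal within 1000 bp of the gene 5′ end (log axis) of each gene in each library, with the median tested promoter of each library as a dashed line of the same color. ApcMin/+ replicate 1 is far above the other libraries at *Cpt1a*, *Acadm*, *Acadl*, *Ehhadh* and *Plin2*, and at *Pdk4* it is at 3.52, below both wild-type libraries.

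None of the 7 tested genes passed the threshold when the signals were compared as deposited. In limma with Benjamini-Hochberg adjustment over 9931 promoters at 0.05, 0 of 7 genes passed, each with an adjusted p of 0.68, beside 0% of all tested promoters. Without adjustment, 131 promoters (1.32%) had a p under 0.05 in this limma fit, and 0 of the 7 genes. The differences, ApcMin/+ minus wild type on the log2(signal + 1) scale, had a median of 0.76 over the 7 genes and 0.85 over all tested promoters, with standard errors of 0.62 to 1.22 for the 7 genes. At 3 of the 7 genes the ApcMin/+ libraries both exceeded the wild-type libraries (*Cpt1a*, *Angptl4* and *Plin2*), beside 38.5% of all tested promoters. The filter takes the mean over the 4 libraries, so promoters high only in ApcMin/+ could enter these counts. *Angptl4* did so, with means of 1.45 in wild type and 2.80 in ApcMin/+, so its order is tied to the filter. At 1 of the 7, *Pdk4*, both were below, beside 0.161% of all tested promoters. The outcome turned on single libraries. Without ApcMin/+ replicate 2, so that the library that stood apart was the only one of its group, *Cpt1a*, *Acadl*, *Ehhadh* and *Plin2* passed with adjusted p of 0.012 to 0.04 in limma, together with 6478 promoters in all. Without ApcMin/+ replicate 1 none of the 7 passed, and their median difference was -0.001. An exact two-sided permutation test of 2 libraries against 2 cannot give a p below 0.333, so it could not separate the groups for any single gene.

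Once each library was centred on its median tested promoter, *Pdk4* was the single gene of the 7 that passed, and it was lower in ApcMin/+. In this fit 1 of 7 genes passed, beside 0.121% of all tested promoters in either direction and 0.0705% (7 promoters) lower in ApcMin/+. Since the list was chosen with earlier results of these data known, these shares are a description only. The other 6 genes differed by -0.23 to -0.04, each with an adjusted p of 1 in limma. Their standard errors of 0.28 to 0.57 leave room for changes in either direction. After this centring, the ApcMin/+ libraries both exceeded the wild-type libraries at 0 of the 7 genes, beside 13.1% of all tested promoters, and were both below at 2 (*Ehhadh* and *Pdk4*), beside 14.3%. The median over the 7 genes was -0.09, and over all tested promoters -0.01.

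**Figure D2:**
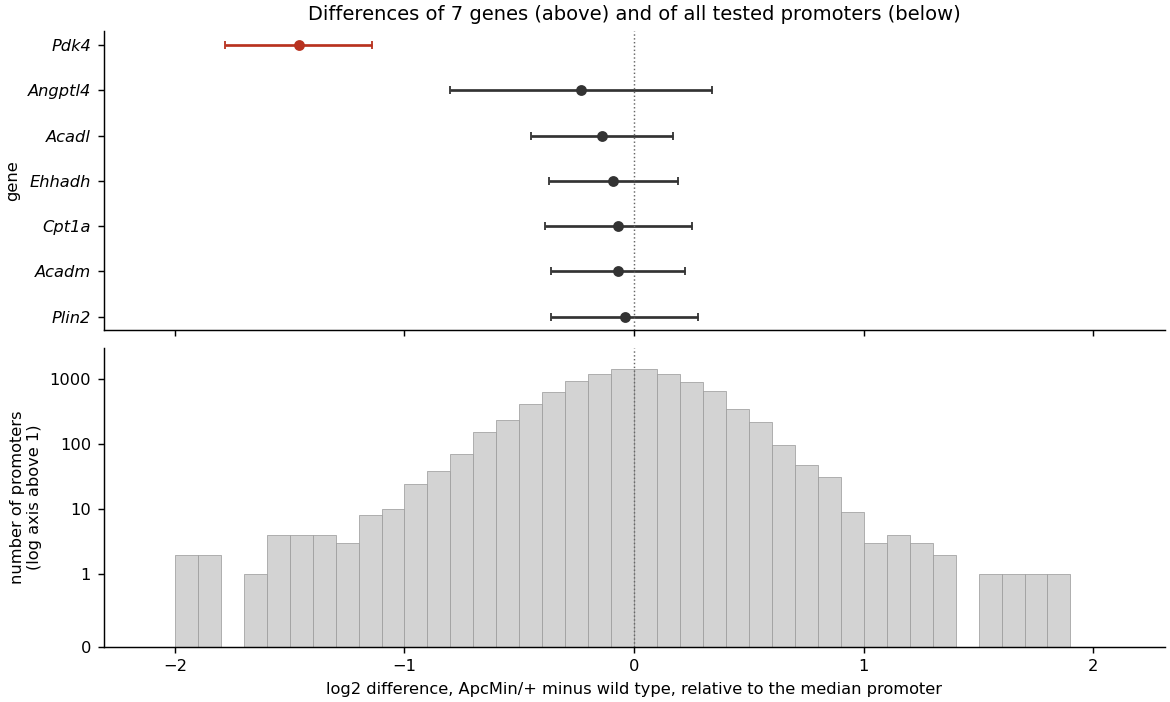
Log2 difference, ApcMin/+ minus wild type, relative to the median promoter, for the 7 tested genes (upper part, points with standard errors from limma, red where the adjusted p is under 0.05) and for all 9931 tested promoters (lower part, number of promoters in bins of 0.1, log axis above 1). *Pdk4* lies at -1.46, where few promoters are found, and the other 6 genes lie between -0.23 and -0.04.

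*Pdk4* encodes the kinase that switches off the pyruvate dehydrogenase complex and so spares glucose while fat is burned. Its promoter had a signal of 8.49 (replicate 1) and 3.69 (replicate 2) in wild type, and of 3.52 and 3.26 in ApcMin/+. Both ApcMin/+ libraries were lower than both wild-type libraries, although 3 of the 4 values lay close together and only wild-type replicate 1 was high. Relative to the median tested promoter of each library, these values were 1.87 and 1.21 times in wild type and 0.267 and 0.780 times in ApcMin/+. By rank, the *Pdk4* promoter exceeded 94.7% and 84.5% of all protein-coding promoters in wild type, and 55.3% and 68.2% in ApcMin/+. The *Pdk4* promoter thus lay above the median tested promoter in both wild-type mice and below it in both ApcMin/+ mice.

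The difference for *Pdk4* was -0.60 ± 0.92 (standard error, n = 2 per genotype) as deposited, with an adjusted p of 0.68 in limma, and it ranged from -1.11 without wild-type replicate 2 to -0.10 without wild-type replicate 1. After centring, *Pdk4* differed by -1.46 ± 0.32, with an adjusted p of 0.0087 in limma. This standard error draws on the spread of all tested promoters and does not measure that of *Pdk4* alone. The centred log2 values of *Pdk4* were 0.78 and 0.21 in wild type and -1.65 and -0.28 in ApcMin/+. *Pdk4* had the 12th lowest relative difference of the 9931 tested promoters. The windows held 24 and 35 fragments in wild type and 26 and 36 in ApcMin/+. Exact Poisson 95% intervals, which cover counting error only, were 1.19 to 2.75 and 0.833 to 1.66 times the median promoter in wild type, and 0.174 to 0.390 and 0.552 to 1.09 in ApcMin/+. The interval of ApcMin/+ replicate 1 lay below both wild-type intervals, and that of ApcMin/+ replicate 2 overlapped the one of wild-type replicate 2.

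The call for *Pdk4* depended on single libraries. Without wild-type replicate 1 the relative difference was -1.17 (adjusted p of 1 in limma), and without ApcMin/+ replicate 1 it was -0.77 (adjusted p of 1 in limma), so that it was lost in both cases. It passed under 8 of 12 alternatives, with adjusted p from 1.2e-04 to 1 in limma, and was also lost with a window of 500 bp (-1.41, adjusted p of 1 in limma) and with no filter on low signal (-0.81, adjusted p of 0.86 in limma). Quantile normalization, which also removes differences between whole libraries, gave -1.28 ± 0.31 and no call (adjusted p of 0.16 in limma). Measured against the background outside promoters and enriched stretches, the signal of *Pdk4* was 31.7 and 11.8 times in wild type and 18.6 and 11.4 times in ApcMin/+, and on that scale the groups overlapped.

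Some markers of other cells moved in the same direction as *Pdk4*. The summed signal of the 4 adipocyte markers was 1.13 and 1.36 times the median promoter in wild type and 0.430 and 0.740 times in ApcMin/+. Of these 4 promoters, *Cidec* had a mean signal of 2.88, and the other 3 were below 1, with *Plin1* at 0.989, *Adipoq* at 0.473 and *Lep* at 0.181, against a background of 0.189 to 0.314. As deposited, the sums of these 4 promoters overlapped, at 5.14 and 4.18 in wild type and 5.67 and 3.09 in ApcMin/+. *Cidec* made up 4.88 of the 5.67. *Plin1*, at 1.64 and 0.972 in wild type and 0.505 and 0.838 in ApcMin/+, was lower in both ApcMin/+ libraries, as *Pdk4* was. A single fragment adds 0.350 and 0.105 in wild type and 0.135 and 0.0914 in ApcMin/+, so this order rests on few fragments. No counting intervals were made for *Plin1*. *Cidec*, at 2.80 and 2.47 in wild type and 4.88 and 1.36 in ApcMin/+, overlapped between the groups, and so did *Adipoq* and *Lep*. For the 4 muscle markers the sums overlapped between the groups, at 0.538 and 0.537 times the median promoter in wild type and 0.107 and 0.712 times in ApcMin/+. The part of these cells in the result for *Pdk4* was not tested.

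*Cpt1a* encodes the outer membrane enzyme that links long-chain fatty acids to carnitine and limits their entry into mitochondria. Its 5′ end had a signal of 3.46 and 2.92 in wild type and of 10.4 and 3.53 in ApcMin/+. Both ApcMin/+ libraries were above both wild-type libraries, the second of them by less than the gap between the wild-type libraries. The mean was 2.19 times that of wild type, and 1.11 times with ApcMin/+ replicate 2 alone. The difference was 0.78 ± 0.93 as deposited and -0.07 ± 0.32 relative to the median promoter. The GENCODE 5′ end of *Cpt1a* belongs to a transcript outside the basic set, and the basic transcript starts 951 bp downstream, where the signal was 8.72, 4.87, 13.8 and 6.32 in the same order of libraries. At that start wild-type replicate 1 exceeded ApcMin/+ replicate 2, so the groups overlapped. Around the RefSeq start beside it the signal was 1.92 and 1.59 times the median promoter in wild type and 1.04 and 1.52 times in ApcMin/+, so that both ApcMin/+ libraries were lower. Tested at its strongest annotated start, *Cpt1a* had a relative difference of -0.43 ± 0.28, which did not pass the threshold (adjusted p of 1 in limma).

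*Acadm* and *Acadl* encode the medium-chain and long-chain acyl-CoA dehydrogenases, which carry out the opening step of mitochondrial β-oxidation. *Acadm* had 6.98 and 5.35 in wild type and 22.2 and 5.49 in ApcMin/+, and *Acadl* had 3.49 and 3.44 in wild type and 12.7 and 2.92 in ApcMin/+. Their enriched stretches were at chr3:153943001-153945000 and chr1:66861901-66864100. In both genes ApcMin/+ replicate 1 was the highest library and ApcMin/+ replicate 2 was below at least 1 wild-type library, so the groups overlapped. The mean in ApcMin/+ was 2.25 times that in wild type for either gene, and with ApcMin/+ replicate 2 alone it was 0.891 times for *Acadm* and 0.841 times for *Acadl*. Relative to the median promoter the differences were -0.07 ± 0.29 for *Acadm* and -0.14 ± 0.31 for *Acadl*. *Acadm* exceeded 88.6% to 96.2% of all protein-coding promoters in each of the 4 libraries, the highest place of the 8 genes in every library except wild-type replicate 1, where *Pdk4* was higher.

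*Ehhadh* encodes the bifunctional enzyme of peroxisomal β-oxidation and is a classical target of PPARα. Its promoter, in the enriched stretch at chr16:21786501-21788800, had 5.51 and 3.81 in wild type and 15.1 and 4.59 in ApcMin/+. The groups overlapped, since ApcMin/+ replicate 2 lay between the wild-type libraries. The mean in ApcMin/+ was 2.11 times that in wild type, and 0.985 times with ApcMin/+ replicate 2 alone. As a multiple of the median promoter it varied little, at 1.21 and 1.24 times in wild type and 1.14 and 1.10 times in ApcMin/+. Both ApcMin/+ values were lower, by a difference of -0.09 ± 0.28 that did not pass the threshold (adjusted p of 1 in limma).

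*Plin2* encodes perilipin 2, a protein of the lipid droplet coat. It had 3.47 and 2.83 in wild type and 10.5 and 3.59 in ApcMin/+, with both ApcMin/+ libraries above both wild-type libraries. ApcMin/+ replicate 2 exceeded wild-type replicate 1 by less than the wild-type libraries differed. The mean was 2.24 times that of wild type, and 1.14 times with ApcMin/+ replicate 2 alone. Relative to the median promoter the difference was -0.04 ± 0.32, the smallest of the 7 genes.

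*Angptl4* encodes a secreted protein that inhibits lipoprotein lipase and, like *Pdk4*, is induced by fasting. Its 5′ end had 1.41 and 1.50 in wild type and 3.12 and 2.47 in ApcMin/+, from 4, 14, 23 and 27 fragments. Both ApcMin/+ libraries were above both wild-type libraries, and this held without ApcMin/+ replicate 1 (1.70 times the wild-type mean). The gene reached the minimum mean of 2 only through the ApcMin/+ libraries, so this order is no support for a difference. The exact Poisson 95% intervals ran from 0.381 to 3.58 and from 0.800 to 2.46 in wild type. In ApcMin/+ they ran from 1.97 to 4.66 and from 1.63 to 3.59, and each overlapped both wild-type intervals. The difference was 0.62 ± 0.62 as deposited, and -0.23 ± 0.57 relative to the median promoter. With a window of 2000 bp these became 0.02 ± 0.68 and -0.80 ± 0.37, with adjusted p of 0.98 and 1 in limma. Most of the mark at *Angptl4* lay further into the gene, in an enriched stretch from 130 to 2529 bp downstream of the 5′ end (chr17:33779301-33781700). There the signal was 5.23 and 2.85 in wild type and 3.18 and 3.35 in ApcMin/+, and the groups overlapped. Set against the median promoter, the stretch had 1.15 and 0.930 times in wild type and 0.241 and 0.803 times in ApcMin/+, so both ApcMin/+ libraries were lower. This was so at 5 of the 8 main stretches (*Cpt1a*, *Ehhadh*, *Pdk4*, *Angptl4* and *Creb3l3*), beside 35.4% of all 55851 stretches and 15.3% of the 7407 that were at least 1800 bp long, and it was not tested. The stretch of *Cpt1a* had 1.32 and 1.21 times in wild type and 1.03 and 1.21 in ApcMin/+. That of *Ehhadh* had 1.05 and 1.15 in wild type and 1.05 and 1.03 in ApcMin/+. In these 2 genes a value of either group was equal to the digits shown, so their order is not firm.

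*Creb3l3* encodes a membrane-bound transcription factor of the endoplasmic reticulum, CREB-H, that is cut free to act on lipid genes in liver and intestine. Its 5′ end was low, with signals of 1.03 and 0.530 in wild type and 1.12 and 1.33 in ApcMin/+, from 3, 5, 8 and 15 fragments. Both ApcMin/+ libraries were the higher ones, but with this few fragments the 95% intervals of all 4 libraries overlapped. These values were 3.83, 1.69, 5.88 and 4.68 times the background, and a weak enriched stretch of 1000 bp lay there (chr10:81097901-81098900, from -26 to 973 bp). Most of the mark of *Creb3l3* was found further inside the gene, in an enriched stretch of 4900 bp from 4974 to 9873 bp downstream of the 5′ end (chr10:81089001-81093900), longer than 99.1% of all 55851 enriched stretches. This stretch spans the internal RefSeq start, which lies 6283 bp downstream in exon 3 of the 12 exons of the basic GENCODE transcript.

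Around the internal start of *Creb3l3* the signal was 10.0 and 3.69 in wild type and 18.8 and 4.70 in ApcMin/+. Each library was well above its own value at the 5′ end, and the groups overlapped. The strongest annotated start of the gene, 6968 bp downstream, belongs to a transcript typed as retained intron and outside the basic set. It had 13.9, 5.43, 26.5 and 6.22 in the same order, with a mean 13.0 times that at the 5′ end. Tested at that start, the difference was 0.53 ± 1.28 as deposited (adjusted p of 0.72 in limma) and -0.36 ± 0.31 after centring (adjusted p of 1 in limma). Of the 12007 protein-coding genes under 2 at the 5′ end, 866 (7.21%) had a start with at least 2, and 34 (0.283%) had one with at least the mean seen at *Creb3l3*. The sequences above differ as well, since the window at the 5′ end held 7 CpGs and none of the motifs searched, while the one at the internal start held 10 CpGs, a CCAAT box, a TGACG and the nuclear receptor pair.

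**Figure D3:**
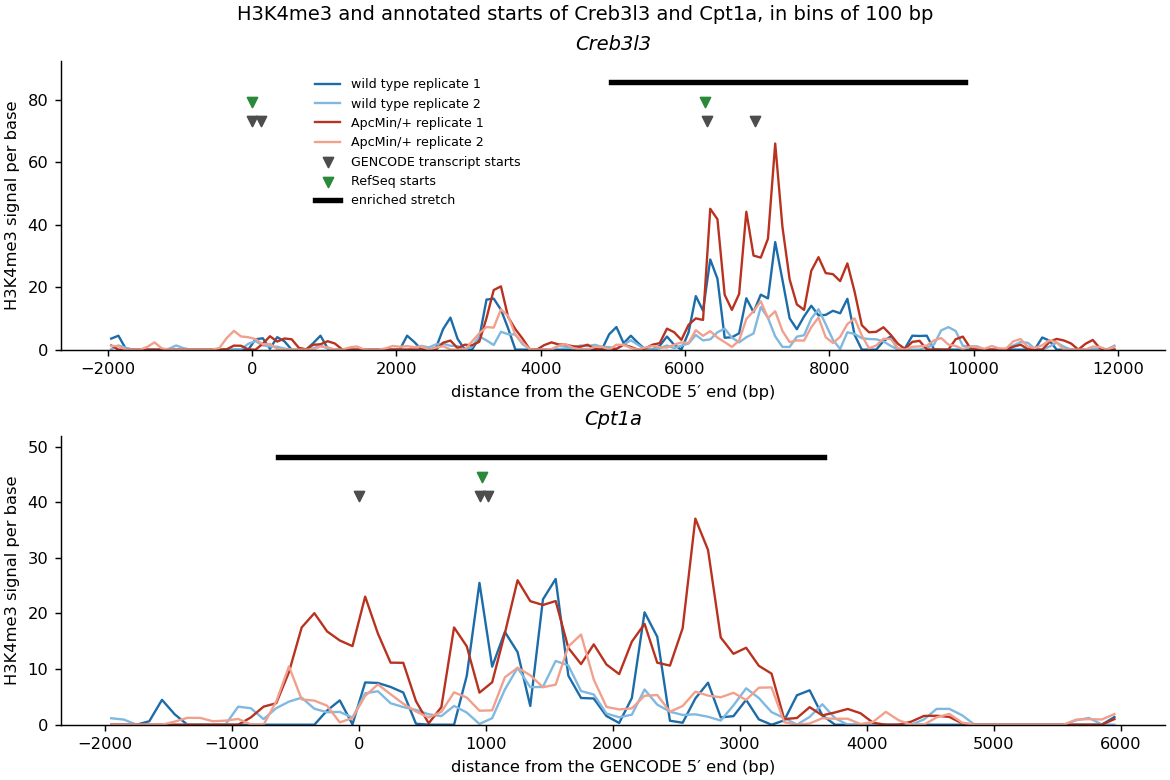
H3K4me3 signal per base in bins of 100 bp along *Creb3l3* and *Cpt1a* against the distance from the GENCODE 5′ end, with GENCODE starts (gray), RefSeq starts (green) and the enriched stretch (black bar). In *Creb3l3* the signal of the 4 libraries rises around the internal starts 6283 to 6968 bp downstream and is low at the 5′ end, and in *Cpt1a* the stretch reaches from -633 to 3666 bp.

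The place of the mark varied among the 8 genes. Over all tested promoters a median of 31.8% of the signal lay upstream of the 5′ end (quartiles 18.2% and 48.6%). The share was 42.8% at *Pdk4*, 40.9% at *Cpt1a*, 33.4% at *Ehhadh*, 29.6% at *Creb3l3*, 26.0% at *Acadm*, 24.4% at *Acadl* and 19.1% at *Angptl4*, all inside these quartiles. *Plin2*, at 12.3%, lay outside them, with the mark mostly on the transcribed side. The main enriched stretch of each gene was 1800 bp (*Plin2*) to 4900 bp (*Creb3l3*) long, against a median of 600 bp over all 55851 stretches. That of *Pdk4* ran from -1391 to 508 bp, with 8.85, 3.90, 3.68 and 3.69, and holds nearly the same fragments as the window described above. No start of another gene lay within 1000 bp of any of the 8, the nearest being 3520 bp from *Acadl*, so neighboring promoters did not enter the windows.

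**Figure D4:**
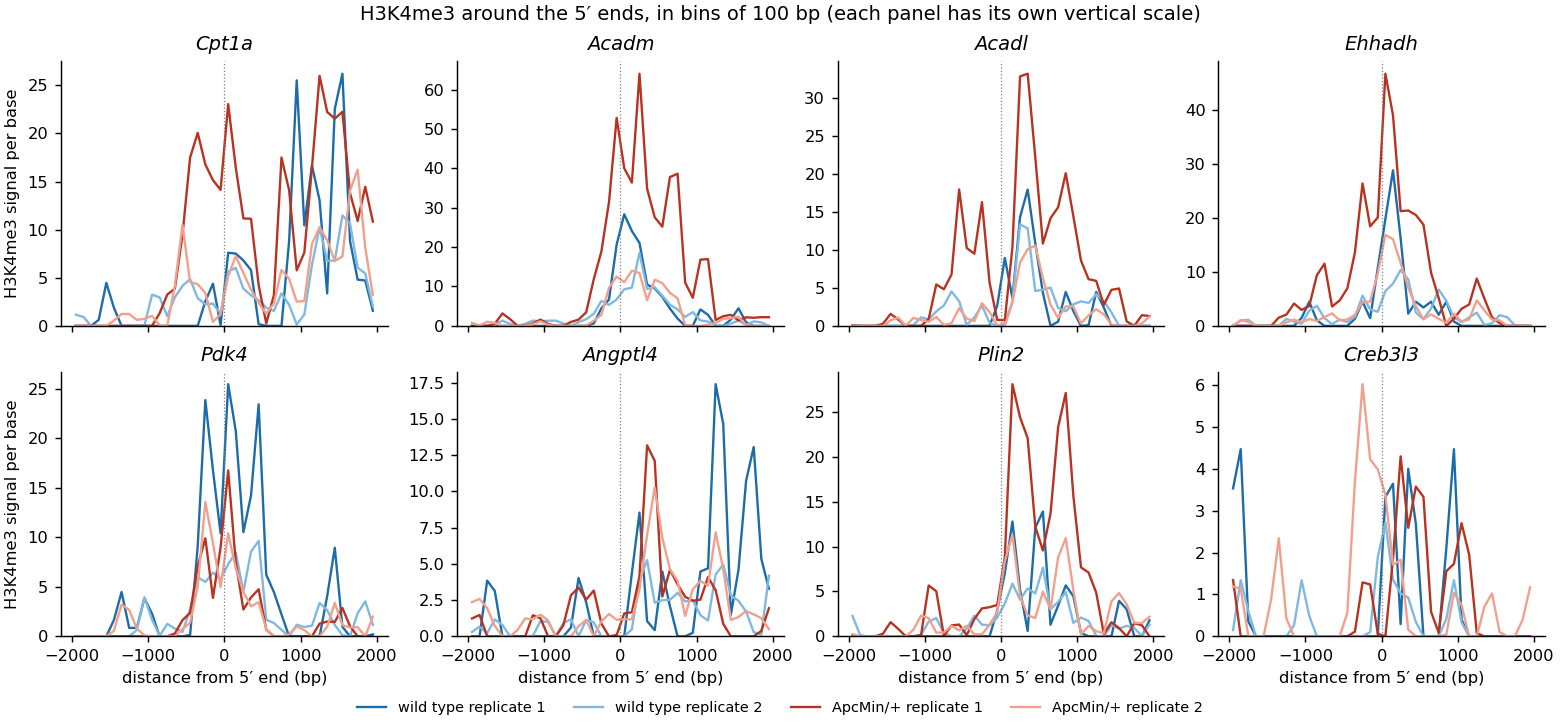
H3K4me3 signal per base from 2000 bp before to 2000 bp after the GENCODE 5′ end of the 8 genes, averaged per 100 bp, 1 line per library, each panel with its own vertical scale. At *Pdk4* the signal lies on both sides of the 5′ end with wild-type replicate 1 highest, at *Plin2* and *Angptl4* it lies downstream, and at *Acadm*, *Acadl*, *Ehhadh* and *Plin2* ApcMin/+ replicate 1 is highest.

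In the wider pathways no promoter passed the threshold in limma, with or without centring. They comprised 9 lists of 89 genes, all found in the annotation, of which 63 were tested. Their median difference was 0.80 as deposited and -0.05 relative to the median promoter, close to 0.85 and -0.01 over all tested promoters. At 15 of the 63 (23.8%) the ApcMin/+ libraries both exceeded the wild-type libraries, and at 0 both were below, beside 38.5% and 0.161% of all tested promoters. Here too, promoters high only in ApcMin/+ could pass the filter. After centring both exceeded at 4 (6.35%) and both were below at 11 (17.5%), beside 13.1% and 14.3% of all tested promoters.

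In the list of ketone body enzymes, *Oxct1*, which serves the use of ketone bodies, had the highest relative difference of all the lists, 0.84 ± 0.31 (adjusted p of 1 in limma). Its signals were 1.01 and 3.73 in wild type and 17.2 and 4.48 in ApcMin/+, with wild-type replicate 1 far below the others. *Acat1*, a mitochondrial thiolase, had 1.74 and 1.98 in wild type and 6.32 and 2.88 in ApcMin/+, and a relative difference of 0.04. *Bdh1*, which interconverts the ketone bodies, was at 0.183 to 0.765 and was not tested.

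Among the genes next to *Pdk4* in function, the other pyruvate dehydrogenase kinases had relative differences nearer to 0. *Pdk1*, *Pdk2* and *Pdk3* were at -0.07, 0.04 and -0.32, and the ends of that list were *Pdk3* (-0.32 ± 0.46) and *Pdha1* (0.23 ± 0.30), the catalytic subunit of the complex. None of these passed the threshold, and the differences between kinases were not tested. In the carnitine shuttle the lowest was *Slc25a20*, the carnitine carrier of the inner membrane (-0.40 ± 0.29), and the highest was *Cpt2* (0.26 ± 0.30). In mitochondrial β-oxidation 13 of 14 genes were tested, from *Etfa* (-0.25 ± 0.29) to *Hadha* (0.23 ± 0.34), and in peroxisomal β-oxidation 10 of 13, from *Acaa1b* (-0.49 ± 0.33) to *Crot* (0.41 ± 0.28).

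The lists on fat uptake, storage and control also held no gene past the threshold. Fatty acid uptake and activation ran from *Acot2* (-0.38 ± 0.37) to *Fabp2* (0.46 ± 0.42) with 8 of 12 genes tested. Among the relatives of *Plin2*, the promoters of *Plin1*, *Plin3*, *Plin4* and *Plin5* had mean signals of 0.726 to 1.08, all under the minimum for testing that *Plin2* passed. The lipid droplet list ran from *Cidec* (-0.81 ± 0.46) to *Hilpda* (0.25 ± 0.36), and the lipoprotein lipase list, with *Lpl* itself at a mean of 1.16, from *Lmf1* (0.14 ± 0.33) to *Angptl8* (0.57 ± 0.43). Of the regulators, *Pparg* was lowest (-0.49 ± 0.29) and *Hnf4a* highest (0.44 ± 0.30). *Ppara*, the receptor named above, had 7.67 and 2.49 in wild type and 13.6 and 3.19 in ApcMin/+, a relative difference of -0.35, and its groups overlapped.

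**Figure D5:**
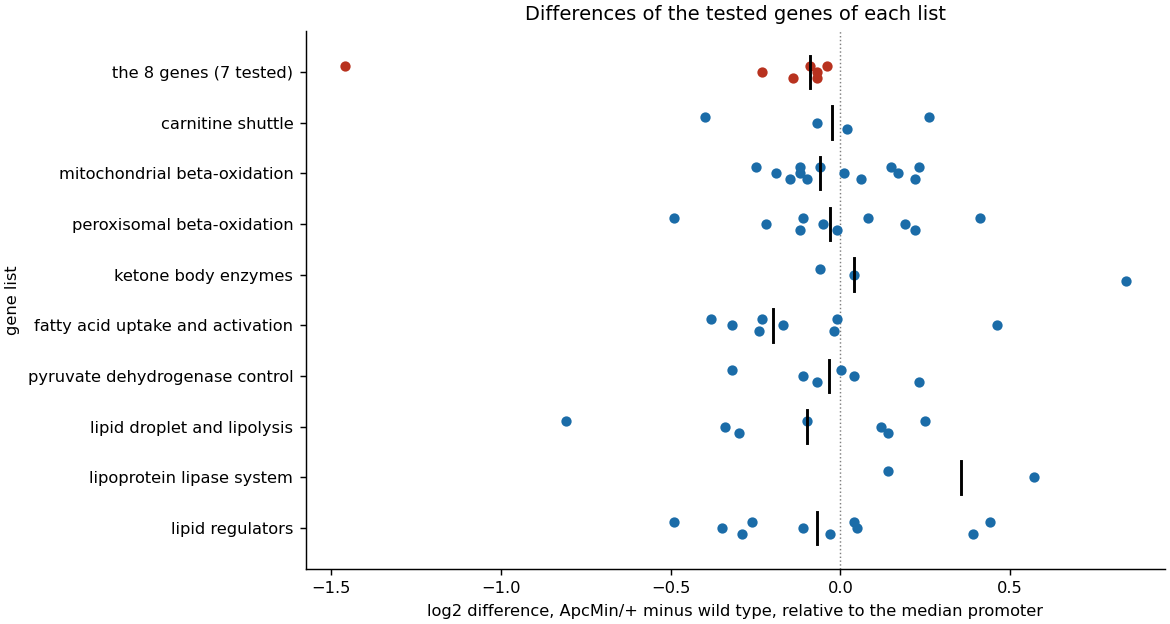
Log2 difference, ApcMin/+ minus wild type, relative to the median promoter, of every tested gene in each list (points) with the median of the list (vertical bar). *Pdk4*, at -1.46, lies below every gene of the other 9 lists, whose values run from -0.81 to 0.84.

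The promoters most like the median of the 8 genes over the 4 libraries, by root mean square distance on the log2(signal + 1) scale among 21938 promoters, were those of *Ppp1r21* (0.0320), *Tbp* (0.0322), *Poli* (0.0331), *Nfatc2ip* (0.0396) and *Slc17a5* (0.0511). They had signals of 10.4 to 11.0 in ApcMin/+ replicate 1 and of 3.12 to 3.72 in the wild-type libraries.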

How the data were processed

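H3K4me3 CUT&RUN libraries of 2 wild-type and 2 ApcMin/+ mice were used, grouped by the genotype in the labels. Of the 34 samples of the series, the others were not analysed here. Per the paper and the labels, the authors trimmed the reads, placed the pairs on mm10 (Bowtie2), took out duplicates (Picard) and reads of low mapping quality (samtools), and kept fragments of histone size. The deposited values are signal, the coverage per base written by HOMER and which the authors set to a total of 10000000 tags, without subtraction of a control and with replicates kept apart. Tests made for counts were therefore avoided. Fragment numbers came from the summed signal of a window over what 1 tag adds to the track. Depth was 1430000 and 4790000 tags in wild type and 3700000 and 5470000 in ApcMin/+, so that the median tested promoter held 13.0, 29.3, 97.6 and 45.7 fragments, and counting error was largest in wild-type replicate 1.

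Signal was averaged over 1000 bp on each side of the 5′ end. Promoters with a mean of at least 2 were tested with limma 3.58.1 (variance trend on, R 4.3.3) after log2(signal + 1), both as deposited and after the median tested promoter of each library was subtracted. P-values were adjusted by Benjamini-Hochberg and called at 0.05. Standard errors are those of limma, which draws the variance of each promoter toward the trend over all tested promoters. A fold on this scale understates the change of low promoters. Enriched stretches were runs of 100 bp bins in which the average track exceeded 5 times its genome mean, merged when up to 500 bp apart and kept from 300 bp upward. A single fragment of wild-type replicate 1 adds the most to that average, so short stretches can rest on few of its fragments. The background signal was that outside the stretches and over 5000 bp from any start. The fits were tested on simulated data. Windows, stretches and figures were made in Python 3.11.15 (pandas 2.3.3, numpy 2.4.6), and exact intervals in scipy 1.17.1.

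The genes and lists were chosen with earlier results of these data known. Named were all 8 genes, in each other list any gene past the threshold and the highest and lowest relative difference, and the 5 promoters nearest to the median of the 8 genes. Some genes that this rule or the lists include are not reported here. Other genes (*Acat1*, *Bdh1*, *Pdk1*, *Pdk2*, *Ppara*, *Lpl*, the *Plin* relatives and the single markers) were named after their values were seen. The alternatives were the window, the pseudocount, the filter on low signal, the scaling, the start used, the omission of each library, and a replicate block. The labels give no batch or date.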

Additional observations from a re-analysis of the deposited data

How the results depend on the processing

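Of 185 values of single genes under the alternatives, 151 kept their direction and their side of the threshold, 4 lost a call (all *Pdk4*, given above), 4 gained one and 26 changed sign. Quantile normalization gave differences of -0.23 (*Acadl*), -0.13 (*Acadm*), -0.07 (*Angptl4*), -0.08 (*Cpt1a*), -0.10 (*Ehhadh*) and -0.04 (*Plin2*), a median of -0.10 and 2 promoters called. With no filter, where the median was that of all 21938 promoters, the relative differences were 0.51, 0.58, 0.42, 0.58, 0.56 and 0.61 for these genes, with a median of 0.53 over the list, 0 promoters and 0 of the genes called. A window of 500 bp gave relative differences of 0.12 for *Cpt1a* and 0.08 for *Ehhadh* with 0 calls, a window of 2000 bp gave 23 calls, a pseudocount of 5 gave 0.04 for *Acadm*, and a minimum mean of 5, which removed *Pdk4* and *Angptl4*, gave 6 calls and 0 of the genes. Apart from the constructions named, the cause was not tested.

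With each library left out in turn, 0 to 6478 promoters and 0 to 4 of the genes were called as deposited, the highest without ApcMin/+ replicate 2, when *Cpt1a*, *Acadl*, *Ehhadh* and *Plin2* passed. Relative to the median promoter it gave 0 to 30 and 0 to 1. The median difference over the genes ranged from -0.001 to 1.48. Differences as deposited ranged from -0.19 to 1.61 (*Acadl*), -0.13 to 1.70 (*Acadm*) and -0.001 to 1.52 (*Ehhadh*). Relative differences ranged from -0.36 to 0.07 (*Acadl*), -0.26 to 0.12 (*Acadm*), -0.83 to 0.37 (*Angptl4*), -0.20 to 0.06 (*Cpt1a*) and -0.15 to 0.07 (*Plin2*). Leaving out 1 library leaves a lone sample that is assumed to vary like the other group.

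The labels number the replicates, but only 2 pairs exist and nothing says that a number is shared. The deviations of same-numbered libraries had a correlation of 0.196 over the tested promoters. With a replicate block, 1 promoter was called as deposited and 15 relative to the median promoter, and *Pdk4* remained called (-1.46).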

Other observations

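From 10000 bp before to 10000 bp after the 8 genes there were 31 enriched stretches, of which 23 were not the main stretch of a gene. Wild-type replicate 1, the library with the fewest tags, was the highest of the 4 libraries in 16 of these 23. Stretches were called on the average track, to which a single fragment of this library adds the most. Its place is therefore partly set by the way stretches were chosen. A stretch of 1200 bp in *Creb3l3*, centred 3174 bp downstream of the 5′ end had 6.39 and 2.64 in wild type and 6.74 and 4.50 in ApcMin/+, with overlapping groups. At *Ehhadh*, a stretch of 600 bp centred 2607 bp into the gene had 5.81 and 1.74 in wild type and 2.32 and 5.22 in ApcMin/+.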
